A study of Homo sapiens with 4 samples.

Results

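HAUSP binding was compared between H1299, a line from lung cancer, and MDA-MB-231, a line from breast cancer. The comparison took every peak of the 2 deposited HAUSP lists, 1379 from H1299 and 1343 from MDA-MB-231, which are 2722 of the 6776 peaks in the 3 lists of the series. Peaks were matched across lines when they shared at least 1 bp, and each was ranked within its own list by the deposited score, with rank 1 for the highest. Under this rule 545 H1299 peaks and 547 MDA-MB-231 peaks were found in both lines, while 834 peaks occurred in the H1299 list only and 796 in the MDA-MB-231 list only.

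HAUSP, also called USP7, is a deubiquitinase that removes ubiquitin from proteins and so keeps them from the proteasome. It is best known for acting on the ubiquitin ligase MDM2, and HIF-1α, the oxygen-regulated subunit of the hypoxia-inducible factor, is another of its substrates. HIF-1α pairs with ARNT and binds DNA at the core ACGTG (or GCGTG) near genes of glycolysis, angiogenesis and chromatin modification. HAUSP is not a sequence-specific transcription factor, so a ChIP peak stands for its presence on chromatin, directly or through other proteins.

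Chromatin immunoprecipitation followed by sequencing was done for HAUSP in both lines and for HIF-1α in H1299, and an H1299 input library completes the 4 samples. Both lines were grown in DMEM with 10% fetal bovine serum, and no other treatment is given for these libraries, nor is the oxygen level. Each line was represented by 1 library, so no difference between lines has a replicate check, no test was run, and cell line, library depth and antibody recovery cannot be told apart. The score is a number whose scale is not named in the sources used here, and it began at 50 in both lists. It was therefore used as a rank, and a gene "without a peak" had none past that level. Each share is followed by its exact 95% Clopper-Pearson interval, which covers no error but that of counting, and the depth behind the peaks is unknown. All positions are on hg19 (GRCh37).

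The peaks at hypoxia genes show what was shared and what was not. In the lines that follow, the ACGTG copy nearest to the middle of the peak, or of the stretch common to both peaks, is written in capitals with 10 reference bases on each side. The first set comes from promoters with a peak in both lines, at the histone demethylase genes KDM3A and KDM4B, at NARF, whose protein binds prelamin A, and at ENO1 and LDHA, which encode the glycolytic enzymes enolase and lactate dehydrogenase. Each of these cores lies inside a HIF-1α peak of H1299.
KDM3A, chr2:86667953-86667977, minus strand: agggaagagaACGTGcggtttcagg
KDM4B, chr19:4968592-4968616, minus strand: ccggccgggaACGTGcaggctggag
NARF, chr17:80416066-80416090, plus strand: cgccgagcctACGTGacacgacgtc
ENO1, chr1:8939094-8939118, minus strand: gactcggagtACGTGacggagcccc
LDHA, chr11:18416013-18416037, minus strand: gcgggaacccACGTGtgagtcgggc

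The second set comes from promoters with a HAUSP peak in MDA-MB-231 only, at 3 other genes of glycolysis, and each of these cores lies inside a HIF-1α peak as well. GPI encodes glucose-6-phosphate isomerase, GAPDH glyceraldehyde-3-phosphate dehydrogenase and PGAM1 a phosphoglycerate mutase.
GPI, chr19:34850331-34850355, plus strand: gaccacccggACGTGctggcccaca
GAPDH, chr12:6643549-6643573, minus strand: ggcctgagctACGTGcgcccgtaaa
PGAM1, chr10:99185768-99185792, plus strand: ccgcgtgcttACGTGcgctccgtga

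The third set comes from promoters with a HAUSP peak in H1299 only, at HK2, which encodes hexokinase 2, VEGFA, which encodes vascular endothelial growth factor A, STC2, the stanniocalcin 2 gene, and INSIG2, a gene of sterol regulation. The core at STC2 lies inside a HIF-1α peak, and the other three do not.
HK2, chr2:75060810-75060834, plus strand: gatgctttagACGTGtgactgggca
VEGFA, chr6:43737427-43737451, plus strand: gagagtgaggACGTGtgtgtctgtg
STC2, chr5:172756539-172756563, plus strand: ctgtgtgtgtACGTGtgcacgctca
INSIG2, chr2:118846141-118846165, plus strand: agcgcgggtgACGTGgtgctgagga

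Measured from the TSS, with negative values upstream, these cores lay between -1101 bp (STC2) and 195 bp (KDM3A). The word was present in each peak shown. These stretches are longer than the 300 bp windows counted below, of which 22.4% at protein-coding TSS held it. No share was counted at like length, so its presence in every peak cannot tell the sets apart.

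Matched peaks kept much of their order. Of the H1299 peaks 39.5% (36.9 to 42.2) were found in MDA-MB-231, and of the MDA-MB-231 peaks 40.7% (38.1 to 43.4) were found in H1299. The matches formed 549 overlapping pairs, which reduced to 543 when each peak was used once. Over these 543 pairs Spearman's correlation of the ranks was 0.70, and Pearson's r of the log10 scores was 0.80. The centres of paired peaks lay a median of 81.0 bp apart, and the median difference in percentile rank was 11.4 points. The pairs share genome position and the mapping of repeats, so the correlations describe these lists. The rank correlation was 0.79 for the 273 pairs near an assembly gap (1 Mb or less from an undetermined stretch of 50 kb or more) and 0.60 for the 270 other pairs.

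Agreement was concentrated at the top of the lists. Of the 100 highest peaks, 96 in the H1299 list and 93 in the MDA-MB-231 list had a counterpart anywhere in the other line, and 73 pairs were in the top 100 of both. By quintiles of the H1299 list (5 bins of equal size), from the highest scores to the lowest, the share found in MDA-MB-231 was 81.2%, 53.6%, 30.9%, 16.7% and 15.2%. For MDA-MB-231 peaks the shares found in H1299 were 80.3%, 50%, 32.7%, 22.8% and 17.8%. The decline was thus alike from either side. Peaks near an assembly gap made up 48.2% of the highest H1299 quintile and 29.3% of the lowest. In MDA-MB-231 they made up 54.6% and 27.9%. Such peaks were found in the other line more often than the rest, 52.8% against 31.5% for H1299 and 54.3% against 32.5% for MDA-MB-231. Their part in the decline was not tested. An unmatched peak rarely had a listed peak of the other line nearby. The counts within 1000 bp were 13 of 834 H1299-only peaks (1.56%, 0.833 to 2.65) and 7 of 796 MDA-MB-231-only peaks (0.879%, 0.354 to 1.80). Sites scoring below 50 in the other line are not listed, so near misses in score could not be counted. The median score was 62.8 for H1299-only and 65.1 for MDA-MB-231-only peaks, against 107 and 106 for the shared peaks of each list.

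**Figure D1:**
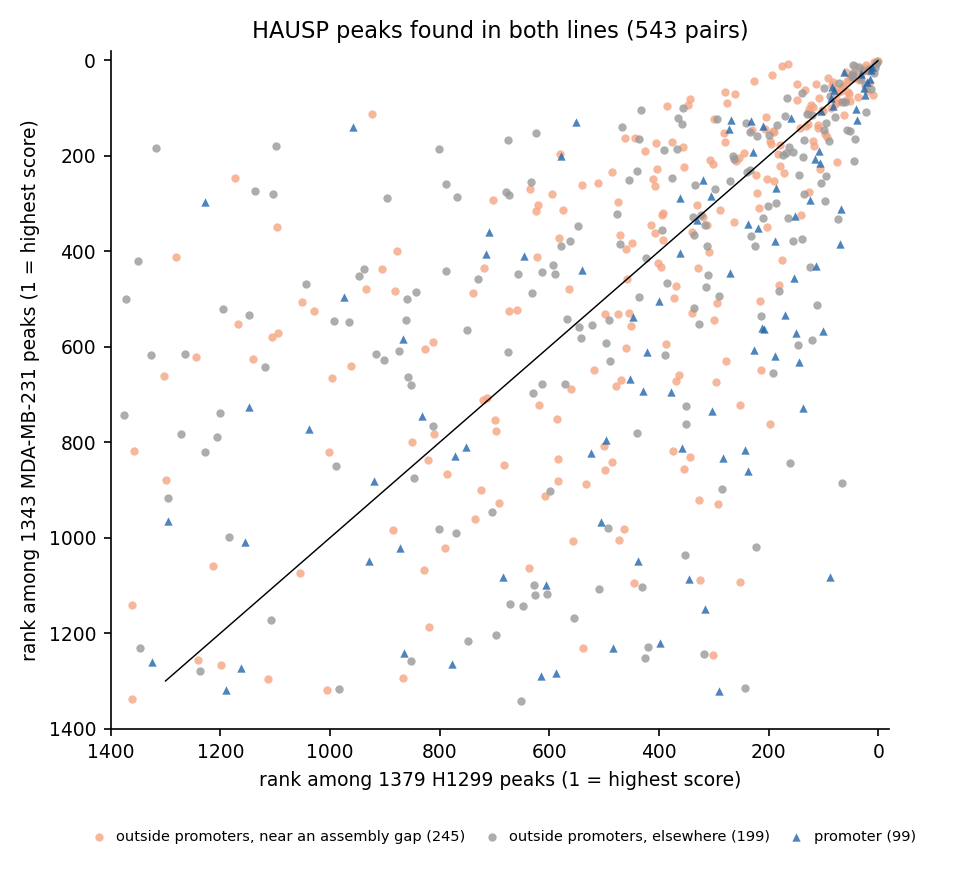
Ranks of the 543 matched HAUSP peaks, with the rank in H1299 on the x axis and in MDA-MB-231 on the y axis, rank 1 at the upper right, and a line of equal rank. Triangles are promoter pairs (99), of which 68 ranked higher in H1299, and circles are the 444 pairs outside promoters.

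The lists differed in where their peaks lay. A promoter was taken as 500 bp on either side of an annotated TSS, and a peak that touched it was called a promoter peak. In H1299 459 peaks were promoter peaks (33.3%, 30.8 to 35.8), against 180 in MDA-MB-231 (13.4%, 11.6 to 15.3). MDA-MB-231 peaks lay more often in introns, 528 (39.3%) against 376 (27.3%), and between genes, 591 (44%) against 477 (34.6%). Exons held 67 peaks in H1299 and 44 in MDA-MB-231. Without the peaks near an assembly gap the promoter shares were 42.2% (38.9 to 45.6) and 16.2% (13.7 to 18.8), and the lines differed by as much.

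The promoter share differed most between the classes found in one line alone. Promoter peaks made up 43.4% (40.0 to 46.8) of H1299-only peaks, 17.8% (14.7 to 21.3) of H1299 peaks found in both lines and 10.6% (8.50 to 12.9) of MDA-MB-231-only peaks. Intronic peaks were 47.0% (43.5 to 50.5) of the MDA-MB-231-only class, against 27.0% of the H1299-only class and 27.7% of the shared peaks. Of the shared peaks 51.2% (46.9 to 55.5) lay between genes. The centre of a promoter peak was a median of 253 bp from the nearest TSS in the H1299-only class and 496 bp in the MDA-MB-231-only class, so many of the latter touched the window with their edge.

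**Figure D2:**
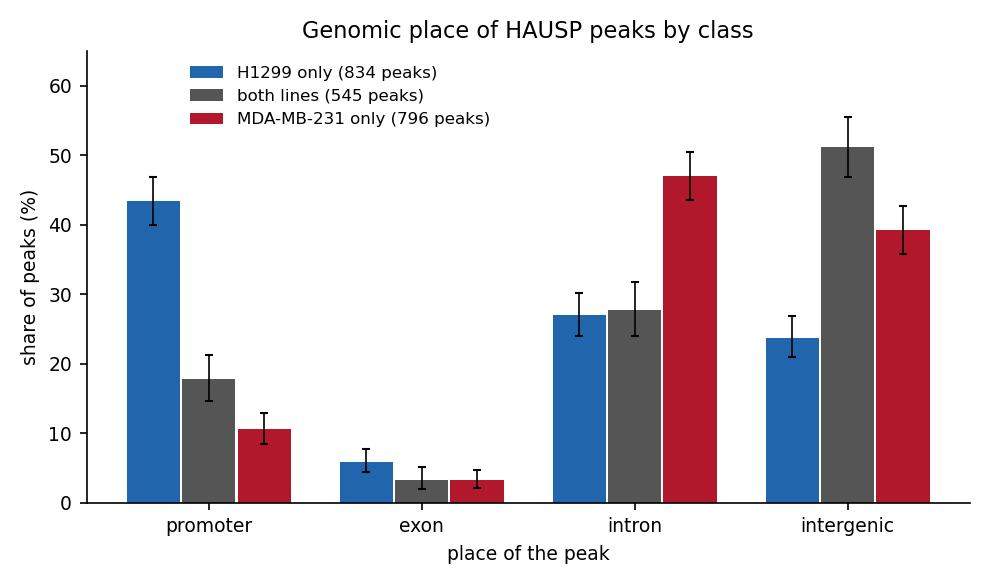
Share of HAUSP peaks (y axis, percent) at promoters, in exons, in introns and between genes for H1299-only peaks, H1299 peaks found in both lines and MDA-MB-231-only peaks, with 95% Clopper-Pearson intervals. Promoters hold 43.4% of the H1299-only peaks and 10.6% of the MDA-MB-231-only peaks.

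Promoter peaks were found in MDA-MB-231 less often than the rest of the H1299 list, 97 of 459 (21.1%, 17.5 to 25.2) against 448 of 920 (48.7%, 45.4 to 52.0). In MDA-MB-231 the order was the opposite, with 96 of 180 promoter peaks (53.3%, 45.8 to 60.8) and 451 of 1163 others (38.8%, 36.0 to 41.6) found in H1299. The shared peaks are nearly the same sites from either side, so these shares differ through the list totals and are no separate result. Promoter peaks made up 24.3% of the highest quintile of H1299 and 35.9% of the lowest, and 13.4% and 15.6% of those of MDA-MB-231. Within the second quintile of H1299, 27.9% (18.8 to 38.6) of promoter peaks and 65.3% (58.0 to 72.0) of others were found in MDA-MB-231. Within the second quintile of MDA-MB-231, 79.3% (60.3 to 92.0) of promoter peaks and 46.4% (40.0 to 53.0) of others were found in H1299. Where promoter peaks were paired, 68 of 99 ranked higher in H1299 and 31 in MDA-MB-231, while the pairs outside promoters split 227 to 216. The rank correlation was 0.66 over the promoter pairs and 0.72 over the 444 others.

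**Figure D3:**
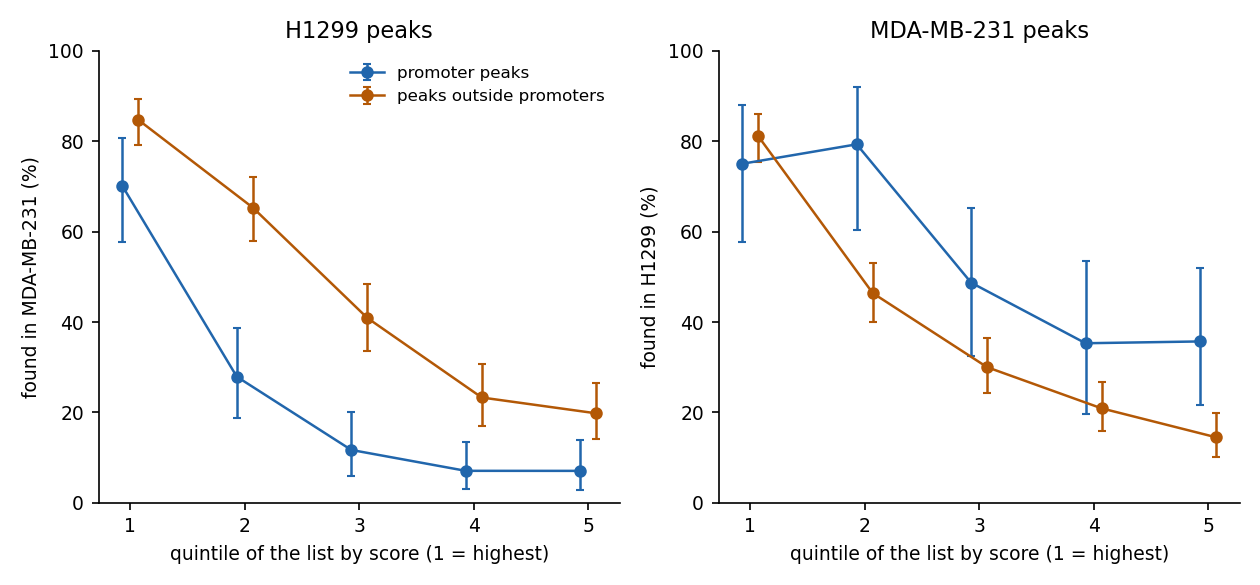
Share of peaks found in the other line (y axis, percent) by quintile of the list (x axis, 1 holds the highest scores), for H1299 peaks on the left and MDA-MB-231 peaks on the right. Points are promoter peaks or peaks outside promoters with 95% Clopper-Pearson intervals, and promoter peaks lie below the others in each H1299 quintile and above them in MDA-MB-231 from the second quintile on.

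Promoter peaks reached 682 genes in H1299 and 241 in MDA-MB-231, and 133 genes were reached in both lines. These are 19.5% of the H1299 genes and 55.2% of the MDA-MB-231 genes, and at all 133 the peaks of the lines overlapped each other. Of 20162 protein-coding genes, 417 (2.07%) had a promoter peak in H1299, 109 (0.541%) in MDA-MB-231 and 61 (0.303%) in both. Thus 356 protein-coding genes had one in H1299 only and 48 in MDA-MB-231 only. For lncRNA genes the counts in H1299, in MDA-MB-231 and in both were 176, 77 and 42. Neighbouring genes can share a peak, and 338 H1299 peaks and 91 MDA-MB-231 peaks lay behind the protein-coding genes.

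The protein-coding genes of best rank in both lines included several known hypoxia genes. The peak at KDM3A, an H3K9 demethylase gene, ranked 13 in H1299 and 21 in MDA-MB-231. The divergent promoter of LRP2BP and ANKRD37, the latter a hypoxia-induced ankyrin repeat gene, had ranks 32 and 29. Ranks at NARF were 27 and 57, and at KDM4B, another demethylase gene, 25 and 73. ENO1 had ranks 39 and 125, and the zinc finger gene RLF had 104 and 106. TMEM248 had ranks 109 and 189, and FAM174B had 211 and 138. The peaks at these genes, except that at TMEM248, were also sites of HIF-1α binding in H1299.

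Genes of the HIF target list were reached in both lines. Of 36 such genes 11 (30.6%) had a promoter peak in H1299, 9 (25%) in MDA-MB-231 and 7 (19.4%) in both, beside the 2.07%, 0.541% and 0.303% of all protein-coding genes. The 7 were NARF, ANKRD37, ENO1, LDHA, P4HA1, DDIT4 and TFRC. LDHA ranked 125 in H1299 and 292 in MDA-MB-231. P4HA1, a collagen prolyl hydroxylase gene, ranked 400 and 505, DDIT4, an inhibitor of mTORC1 signalling, 422 and 610, and TFRC, the transferrin receptor gene, 447 and 538. Among the 7 shared genes ANKRD37 alone ranked higher in MDA-MB-231. In H1299 only were HK2 (rank 256), STC2 (815), INSIG2 (838) and VEGFA (1266), and in MDA-MB-231 only GAPDH (98) and PGAM1 (845). The list holds genes that the study also named, and it was written with earlier results of these data known.

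JmjC genes encode oxygen-dependent demethylases and hydroxylases. Of 22, 4 (18.2%) had a promoter peak in H1299 and 2 (9.09%) in MDA-MB-231, beside 2.07% and 0.541% of all protein-coding genes, and those 2, KDM3A and KDM4B, had it in both. KDM5C, an H3K4 demethylase gene (rank 563), and HIF1AN, the gene of the asparaginyl hydroxylase that acts on HIF-1α (rank 1171), had one in H1299 only. KDM4C had no peak at its annotated gene start, but an H1299-only peak of rank 142 at chr9:6756880-6758207 lay in its intron, within 500 bp of the start of another KDM4C transcript. That peak overlapped a HIF-1α peak. TWIST1, SLC2A1, CDH1, CDH2 and RARA, which the study examined singly, had no promoter peak in either list, and neither had USP7, the gene of HAUSP. By qChIP, however, the paper reported HAUSP at TWIST1, VEGFA and SLC2A1 in MDA-MB-231, with less after HAUSP knockdown, and at the RARA promoter. A missing peak here thus does not mean that HAUSP was absent.

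**Figure D4:**
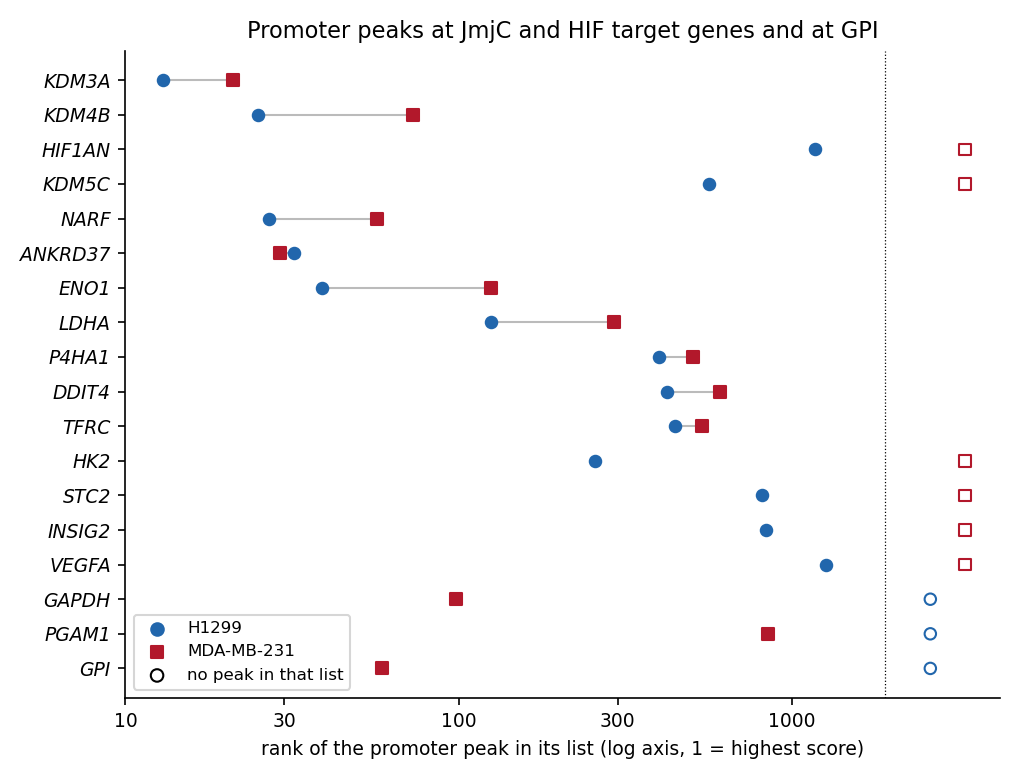
Rank of the promoter peak (x axis, log scale) at 17 genes of the JmjC and HIF target lists and at GPI, with circles for H1299 and squares for MDA-MB-231, and open symbols right of the dotted line for lists without a peak. Shared genes lie between rank 13 and rank 610, and ANKRD37 is the one shared gene shown whose MDA-MB-231 rank is the higher.

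Of 16 glycolysis genes, a list chosen after the values were seen, 2, ENO1 and LDHA, had promoter peaks in both lines, beside 0.303% of all protein-coding genes. HK2 had one in H1299 only, beside 356 of all 20162 protein-coding genes. GPI, GAPDH and PGAM1 had one in MDA-MB-231 only, beside 48 of the 20162, and 10 of the 16 had none. GPI had the best rank of any MDA-MB-231-only protein-coding gene, 59, at chr19:34849671-34850938, and the nearest H1299 peak was 281044 bp from its TSS. At GAPDH the MDA-MB-231 peak spanned chr12:6642168-6644499 and the nearest H1299 peak was 1102758 bp from the TSS. Other shared peaks lay beyond the promoter window of the gene that held them, though the pair inside ALDOA touched that of another annotated gene. Peaks of both lines lay inside ALDOA, the aldolase gene, 915 bp from the TSS in H1299 (rank 153) and 939 bp in MDA-MB-231 (rank 326). Inside PKM, the pyruvate kinase gene, they lay 4477 bp (rank 105) and 4415 bp (rank 256) from it. Inside PFKFB4, which encodes a regulator of glycolytic flux, they lay 4155 bp (rank 43) and 4149 bp (rank 165) from it.

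In the other gene groups the H1299 count was the higher or the counts were equal. Of 508 ZNF genes, which encode zinc finger proteins, 30 (5.91%) had a promoter peak in H1299 and 5 (0.984%) in MDA-MB-231, beside 2.07% and 0.541% of all protein-coding genes, and ZNF160 (ranks 150 and 571) and ZNF654 (331 and 334) had one in both. Of 64 replication-dependent histone genes 5 (7.81%) had one in H1299, at H4C16, H1-2, H2BC6, H2AC15 and H2BC15, and 0 in MDA-MB-231. Of 56 translation initiation factor genes 4 (7.14%) had one in H1299, 2 (3.57%) in MDA-MB-231 and 1 (1.79%), EIF5A (506 and 967), in both. Of 78 mitochondrial ribosomal protein genes 4 (5.13%) had one in H1299 and 2 (2.56%) in MDA-MB-231, both of them, MRPL28 and MRPS23, shared. The 81 cytosolic ribosomal protein genes split into RPL5 and RPS14 in H1299 and RPL3 and RPS29 in MDA-MB-231, 2.47% in each line. Of 1896 spliceosomal snRNA genes 6 (0.316%) had one in H1299 and 1 (0.0527%), RNVU1-18 (238 and 343), in both lines. Of all genes, coding or not, 1.06% had one in H1299, 0.374% in MDA-MB-231 and 0.206% in both. The lists of 33 proteasome subunits, 32 Mediator subunits and 20 regulators of HAUSP and HIF, among them MDM2 and HIF1A, had 0 members with a promoter peak in either line. The same was true of the 4 lung epithelial, 6 luminal breast and 6 basal or mesenchymal marker genes, so promoter peaks gave no check of the labelled cell lines.

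Beyond the lists, the best H1299-only protein-coding gene was GTF2IRD2B (rank 55), followed by EOLA1 with ENSG00000241489 (116), NRN1, the neuritin gene (134), WDR36, which acts in ribosome biogenesis (152), and POM121C, a nuclear pore gene (159). GTF2IRD2B, EOLA1 and POM121C have close copies elsewhere in the genome, and although the study's mapping kept reads with a single alignment, mappability at these genes was not measured here. PNISR (209), DUS3L (240), TAL1 (241) and ZNF146 (247) came next. The MDA-MB-231-only protein-coding genes after GPI and GAPDH were GOLM2 (124), FLOT1, which encodes the membrane raft protein flotillin-1 (127), UBE2QL1 (202), PRLH (408), ZNF114 (464), SLC45A2 (566) and the shared promoter of LRR1 and RPS29 (671). Over these 10 protein-coding genes of each line the rank thus ran from 55 to 247 in H1299 and from 59 to 671 in MDA-MB-231.

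Among shared protein-coding genes the widest rank differences ran in favour of H1299. PPP4R3B, a protein phosphatase 4 subunit gene, ranked 290 in H1299 and 1320 in MDA-MB-231. ITFG2 ranked 88 and 1082, ENSG00000285000 316 and 1149, and the divergent promoter of ANKZF1 and the autophagy gene ATG9A 484 and 1230. In the other direction the differences between protein-coding genes were smaller. The sorting nexin gene SNX32 ranked 578 in H1299 and 201 in MDA-MB-231, TOMM20, a mitochondrial import receptor gene, 716 and 405, FCMR 269 and 126, and CENPP, a kinetochore gene, 832 and 745. This was not so among non-coding genes. The pseudogene RP11-7G23.4, which lies near an assembly gap and was named after its values were seen, ranked 1228 in H1299 and 297 in MDA-MB-231.

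HIF-1α binding, which did not enter the choice of peaks and was measured in H1299, was most frequent at shared peaks. A HIF-1α peak overlapped 63 of 545 shared peaks (11.6%, 9 to 14.5), 47 of 834 H1299-only peaks (5.64%, 4.17 to 7.42) and 3 of 796 MDA-MB-231-only peaks (0.377%, 0.0778 to 1.10). Without peaks near gaps the shares were 20.4% of shared, 6.97% of H1299-only and 0.355% of MDA-MB-231-only peaks. With HIF-1α scores of at least 100 they were 7.89%, 1.56% and 0.377% in the same order. At promoters the counts were 33 of 97 (34.0%, 24.7 to 44.3), 26 of 362 (7.18%, 4.75 to 10.3) and 3 of 84 (3.57%, 0.743 to 10.1). Rank in H1299 moved with this overlap. Within the highest quintile of H1299 the shares were 21.0% (15.8 to 26.9) for shared and 25% (14 to 38.9) for H1299-only peaks, and in the 4 other quintiles they were 4.98% (2.88 to 7.97) and 4.35% (3.03 to 6.02). Within each of these rank groups the intervals of the classes overlapped. Across the 4 pooled quintiles the share found in MDA-MB-231 fell from 53.6% to 15.2%, so rank was not matched within them. Whether the classes differ at equal rank was not tested. In the highest quintile a HIF-1α peak overlapped 24 of 47 shared promoter peaks (interval 36.1% to 65.9%) and 6 of 20 H1299-only ones (11.9% to 54.3%). At promoters in the 4 other quintiles the shares were 18.0% (8.58 to 31.4) of 50 shared and 5.85% (3.61 to 8.89) of 342 H1299-only peaks.

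The 3 MDA-MB-231-only peaks with HIF-1α were those at GPI, GAPDH and PGAM1. HIF-1α in H1299 had its highest peak of all 4054 at GPI, and ranked 18 at GAPDH and 23 at PGAM1. Among the 25 highest HIF-1α peaks, HAUSP had a peak at 22 in H1299 and at 22 in MDA-MB-231, and at 19 in both. The 3 with an H1299 HAUSP peak only were nearest to GOLGA8A, CBX5 and CREB1. None of the 25 was without HAUSP in both lines. Of the next 75, 37 overlapped a peak in H1299 and 27 in MDA-MB-231, the 27 being found in both.

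Words of the sequence were counted on either strand in the 300 bp around each peak centre. ACGTG, the HIF core, was present in 57.7% (47.3 to 67.7) of shared promoter peaks of H1299, 41.7% (36.6 to 47.0) of H1299-only promoter peaks and 46.4% (35.5 to 57.6) of MDA-MB-231-only promoter peaks, against 22.4% of the 300 bp around all protein-coding TSS. Outside promoters it was present in 24.8%, 25.8% and 30.6% of the same classes, against 11% of windows spaced every 100 kb along the genome. CACGTG, the E-box word that contains ACGTG, was present in 17.5% (10.6 to 26.6), 8.56% (5.89 to 11.9) and 9.52% (4.20 to 17.9) of the promoter classes, against 7.76% at all TSS. GGGCGGG, the GC box bound by SP1, was present in 22.7%, 14.9% and 15.5%, below the 39.3% at all TSS. TGANTCA takes in the AP-1 site but allows any base at N, so its counts are not those of AP-1 sites alone. It was present in 12.9% (10.0 to 16.3) of H1299-only peaks outside promoters, against 6.70% of the shared ones, 6.32% of the MDA-MB-231-only ones and 9.28% of the genome windows. The median GC content of promoter peaks was 57.7% in the shared, 58.0% in the H1299-only and 51.3% in the MDA-MB-231-only class, against 62.7% at all TSS. The part of GC content in these word counts was not tested.

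Near an assembly gap lay 50.5% (46.2 to 54.7) of the shared H1299 peaks, against 29.5% of H1299-only and 29.1% of MDA-MB-231-only peaks, and outside promoters many shared peaks held tandem repeats. A peak was called tandem when at least 60% of its bases were identical after a shift of 2 to 180 bp. Near assembly gaps this held for 85 of 248 shared H1299 peaks outside promoters (34.3%, 28.4 to 40.5), and away from gaps for 31 of 200 (15.5%, 10.8 to 21.3). Peaks of a single line near gaps were also tandem, 39 of 176 H1299-only peaks (22.2%, 16.3 to 29.0) and 50 of 214 MDA-MB-231-only peaks (23.4%, 17.9 to 29.6). In windows of 1100 bp along the genome it held for 0.332%. Of the 85, 24 repeated within 2 bp of the unit length of alpha satellite, the repeat of centromeres, and 13 repeated at 5 bp. At promoters 1 of 97 shared and 3 of 362 H1299-only peaks were tandem. Successive copies from a shared peak on chromosome 5, rank 6 in H1299, are shown because they carry the longer repeat. Capitals mark the bases that differ.
Copy 1, chr5:49405775-49405804, plus strand: tccGaatatccacttgcagattctacaaaa
Copy 2, chr5:49405946-49405975, plus strand: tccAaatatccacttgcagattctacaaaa

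A shared peak on chromosome 1, rank 16 in H1299, carries the repeat of 5 bp, the GGAAT satellite. The word GGAATGGAA was present in 9.82% (7.23 to 13) of shared, 3.39% (1.95 to 5.45) of H1299-only and 0.983% (0.396 to 2.02) of MDA-MB-231-only peaks outside promoters.
Satellite, chr1:142538954-142538983, plus strand: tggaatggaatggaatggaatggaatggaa

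Away from gaps, tandem repeats were also present in MDA-MB-231-only peaks outside promoters, 69 of 498 (13.9%, 10.9 to 17.2), against 13 of 296 H1299-only peaks (4.39%, 2.36 to 7.39). Some MDA-MB-231-only peaks, tandem or not, gathered in single long genes. PTPRN2, a gene of 1049 kb that encodes a phosphatase-like protein of secretory granules, held 13 MDA-MB-231 peaks with ranks from 74 to 1331 and 0 of H1299, and 5 of the 13 were tandem. CDH4, the R-cadherin gene of 688 kb, held 10 MDA-MB-231 peaks and 0 of H1299. Of the 10, 0 were tandem and 5 lay near an assembly gap. ADARB2, an RNA-editing family gene, held 4 and 0. These genes were chosen after their values were seen. The copies below come from the best of the PTPRN2 peaks, where the repeat is 46 bp long, and no base differs between them.
PTPRN2 copy 1, chr7:158129142-158129171, plus strand: atgtcactcacacccacactctcaccataa
PTPRN2 copy 2, chr7:158129188-158129217, plus strand: atgtcactcacacccacactctcaccataa

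The strongest peaks outside promoters and away from gaps were shared, though mappability and input signal at these sites were not examined here. One in an intron of HFM1 on chromosome 1 ranked 2 in H1299 and 4 in MDA-MB-231, one on chromosome 4 at chr4:68263768-68267172 ranked 4 and 8, and one on chromosome 17 at chr17:41399359-41401349 ranked 9 and 27. The best H1299-only peak of this kind lay in an exon of PLOD2, a collagen lysyl hydroxylase gene (rank 91), and overlapped a HIF-1α peak. It lay within 500 bp of the start of a PLOD2 transcript other than the one that defines the gene. The best of MDA-MB-231 only lay in an intron of MOB3A (rank 53) and overlapped none.

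The lines also differed by chromosome. Density of peaks per Mb had a Spearman's correlation of 0.80 between the lines over 24 chromosomes, which share length and gene content. Chromosome 12 held 87 peaks in H1299 and 44 in MDA-MB-231, a ratio of 1.98 (1.36 to 2.91), and chromosome 19 held 113 and 76, a ratio of 1.49 (1.10 to 2.02). Chromosome 13 held 7 and 30, a ratio of 0.233 (0.0865 to 0.542), and chromosome 20 held 36 and 57, a ratio of 0.632 (0.404 to 0.975). The other 20 intervals included 1. Promoter peaks were 36 of the 87 H1299 peaks on chromosome 12 and 7 of the 44 of MDA-MB-231. Among scores of at least 100 chromosome 12 held 14 peaks in each line, so its excess lay in peaks of lower score. On chromosome 13, 15 of the 30 MDA-MB-231 peaks were near a gap, and without such peaks the counts were 6 and 15. The intervals of chromosomes 13 and 20 then included 1, with ratios of 0.400 (0.127 to 1.09) and 0.548 (0.285 to 1.02), while that of chromosome 10 lay below 1 (0.612, 0.375 to 0.984). Chromosome Y held 44 and 39 peaks, each near a gap, and 33 and 35 of them were found in the other line. Whether their reads came from chromosome Y was not tested. On autosomes alone the shares found in the other line were 38.3% for H1299 and 38.9% for MDA-MB-231. The input library is from H1299 and the control used for peak calling is not given in the sources used here, so the copy number of each line, the control and HAUSP binding cannot be told apart in these counts.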

How the data were processed

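HAUSP ChIP-seq peaks of H1299 and MDA-MB-231, with HIF-1α peaks of H1299, were analysed as deposited. Per the labels and the study's methods, the authors aligned reads to the hg19 build by Bowtie (0.12.7), keeping reads with a single alignment, and called peaks with MACS (1.4.2) at default parameters. The deposited score of each peak is on a scale that is not named in the sources used here, and the depth per library is unknown. The H1299 input was not used here.

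Starts were converted to count from 1. Peaks were matched by at least 1 bp, and one-to-one pairs were formed by the longest overlap. Genes and TSS came from GENCODE release 44 mapped to GRCh37, and sequences from GRCh37. With 1 library per line no test was run, and shares carry exact 95% Clopper-Pearson intervals. Named genes were the 10 protein-coding genes of best rank in each class, the 5 protein-coding genes of largest rank difference in each direction, members of the gene lists with a promoter peak (at most 8 of a list by rank), genes the study examined singly, USP7, and the 5 best peaks outside promoters in each class, of which a selection is given. Some items that this rule selects are not reported here. Members and lists were chosen with earlier results of these data known. The tandem repeat measure, the glycolysis list and the split of HIF-1α overlap by quintile were added after the data were seen. Matching and word counts were tested on simulated data. Scripts used scipy 1.17.1, pysam 0.24.0, pandas 2.3.3 and numpy 2.4.6 under Python 3.11.15.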

Additional observations from a re-analysis of the deposited data

How the results depend on the processing

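No paired analysis was possible because HAUSP was sequenced in 1 library per line. Of 72 alternatives 35 kept a share or ratio within its 95% interval, moved the rank correlation by under 0.1 or moved a count by under 1.5 times, and 37 moved it further. The shares of H1299 and MDA-MB-231 peaks found in the other line were 36.1% and 37.1% when 50% of both peaks had to overlap, 31.8% and 32.7% with centres within 250 bp, 58.8% and 55.2% with scores of at least 100, 54.6% and 54.4% for the 500 highest scores, and 31.5% and 32.5% without peaks near gaps. Pearson's r of 0.80 stood above the rank correlation, which ranged from 0.60 to 0.72. The promoter shares of H1299 and MDA-MB-231 were 37.1% and 16.2% with a window of 1000 bp, 23.4% and 8.12% with the peak centre inside the window, 41.9% and 19.1% with every transcript TSS, 24.5% and 6.78% for protein-coding genes, and 42.2% and 16.2% without peaks near gaps. That of H1299 was also 30.6% with a window of 250 bp, 25.8% with scores of at least 100 and 26.2% for the 500 highest. Genes reached in both lines, H1299 only and MDA-MB-231 only numbered 78, 363 and 63 with the peak centre inside the window, 61, 356 and 48 for protein-coding genes, and 50, 91 and 25 with scores of at least 100. HIF-1α overlap was 20.4% of shared peaks without those near gaps, and 7.89% of shared and 1.56% of H1299-only peaks with HIF-1α scores of at least 100. The ratio on chromosome 12 was 1.00 with scores of at least 100, and that on chromosome 13 was 0.400 without peaks near gaps. The cause of these changes was not tested beyond the smaller lists that the settings leave. The promoter share was higher in H1299 under each setting run.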
